A study of Homo sapiens with 16 samples.

Results

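The genes described here are 9 transcription factors of the MYC network, namely MYC, MAX, MXD1, MXD3, MXD4, MXI1, MNT, MLX and TFAP4, out of 20612 genes in the deposited expression table. They were found in the table by their symbols. All 9 had a mean of at least 0.5 RPKM (reads scaled by the length of the gene and by the mapped reads of the library) over the libraries and were among the 12466 genes tested. RNA was sequenced from HCT116, a human colorectal cancer cell line with wild type p53 (p53+/+), and from its counterpart without p53 (p53-/-), which the series describes as isogenic. Cells of both genotypes were treated for 8 hours with DMSO as the vehicle, with 5 µM Nutlin-3A, with 2.5 µM Entinostat, or with both drugs together, called the combination here. The sample annotation used here lists no doses for the combination. Nutlin-3A occupies the pocket of MDM2 that holds p53 and so keeps p53 from being degraded, and Entinostat blocks class I histone deacetylases. There were 16 libraries, 2 replicates for each of 8 groups. Whether replicates were separate cultures is not stated in the labels, so the p values rest on a spread between libraries that may be technical. The sources used here do not say whether the p53-/- line is a single clone, and the effect of p53 cannot be told apart from other differences between the lines.

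MYC is a basic helix-loop-helix leucine zipper protein that binds DNA as a dimer with MAX, at the E-box CACGTG, and raises the transcription of genes for ribosome assembly, nucleotide synthesis and cell growth. MXD1, MXD3, MXD4, MXI1 and MNT compete with MYC for MAX and bring the SIN3 corepressor, with its histone deacetylases, to the same sites. MLX is a MAX-like protein that pairs with MXD1, MXD4, MNT and the nutrient sensors MLXIP (MondoA) and MLXIPL (ChREBP). TFAP4, also called AP4, is a related protein that binds the E-box CAGCTG, is induced by MYC in colorectal cells and represses the p21 gene CDKN1A.

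Under Nutlin-3A, CDKN1A and MDM2, both targets of p53, were 11.7-fold and 14.8-fold higher in p53+/+ cells. Of 8 epithelial markers all except VIL1 (at most 0.0435 RPKM) were expressed, and their summed level ran from 1957 RPKM (p53-/- Nutlin-3A) to 4461 RPKM (p53+/+ combination). Of 14 markers of leukocytes, fibroblasts, endothelium and hepatocytes, 13 stayed at or below 0.243 RPKM in every library. The exception, COL1A1, had 2.00 to 5.80 RPKM, and the sum of the 4 fibroblast markers was highest in the p53+/+ combination group (5.50 RPKM) and lowest in the p53-/- Nutlin-3A group (2.13). In RNA from bulk cultures a smaller number of cells that express a gene and less RNA per cell cannot be told apart.

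Promoter sequence from RefSeq (GRCh38.p14, 250 bases before to 50 bases after each start) was matched for 7 of the 9 genes, all but MYC and TFAP4. Of their 10 windows, 3 held CACGTG, the site of MYC and its antagonists, in MXD4, MNT and MLX, and 1 held CAGCTG, the site of TFAP4, in MXD3. Both motifs read the same on both strands and do not overlap each other. Among all 35116 windows 7.26% held CACGTG and 17.9% held CAGCTG. Counted by gene, 3 of the 7 (42.9%) held CACGTG and 1 (14.3%) held CAGCTG. Of the 9378 tested genes with a window, 12.8% held CACGTG and 22.3% held CAGCTG. The stretches around these sites are shown because they are the places in the network's own promoters where its proteins could bind. Each is written 5′ to 3′ in the direction of the gene with the E-box in capitals, and the first base of the E-box lies 238 bases before the start of MXD4, 193 before that of MNT, 50 before that of MLX and 68 before that of MXD3. The positions are chr4:2262302-2262359 (minus strand), chr17:2401208-2401293 (minus strand), chr17:42567010-42567095 (plus strand) and chr5:177312775-177312860 (minus strand).
MXD4: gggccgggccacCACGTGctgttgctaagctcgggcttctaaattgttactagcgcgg
MNT: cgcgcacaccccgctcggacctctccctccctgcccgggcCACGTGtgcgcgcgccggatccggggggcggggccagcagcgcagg
MLX: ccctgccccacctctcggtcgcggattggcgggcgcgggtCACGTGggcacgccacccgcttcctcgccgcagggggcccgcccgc
MXD3: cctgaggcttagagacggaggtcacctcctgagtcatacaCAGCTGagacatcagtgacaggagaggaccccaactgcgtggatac
A match of letters is a description and does not show that a factor binds there.

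The 9 genes differed widely in level, which RPKM allows to be compared between genes because it is scaled by gene length. MYC averaged 130.5 RPKM over the 16 libraries, above 96.9% of the genes tested. MLX followed with 29.2 RPKM, then MAX with 13.4, MXI1 with 10.1 and TFAP4 with 9.96. MXD4 (5.39 RPKM), MXD3 (4.50) and MNT (2.99) were lower, and MXD1 was lowest with 1.22 RPKM, above 10.3% of genes. Ranges over the libraries overlapped between most neighbours in this order, so that only MYC, from 60.4 to 234 RPKM, and MLX, from 24.6 to 35.7 RPKM, stood apart from all others in every library. RPKM is given per gene, and the isoforms of MAX and MXI1 were not separated.

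**Figure D1:**
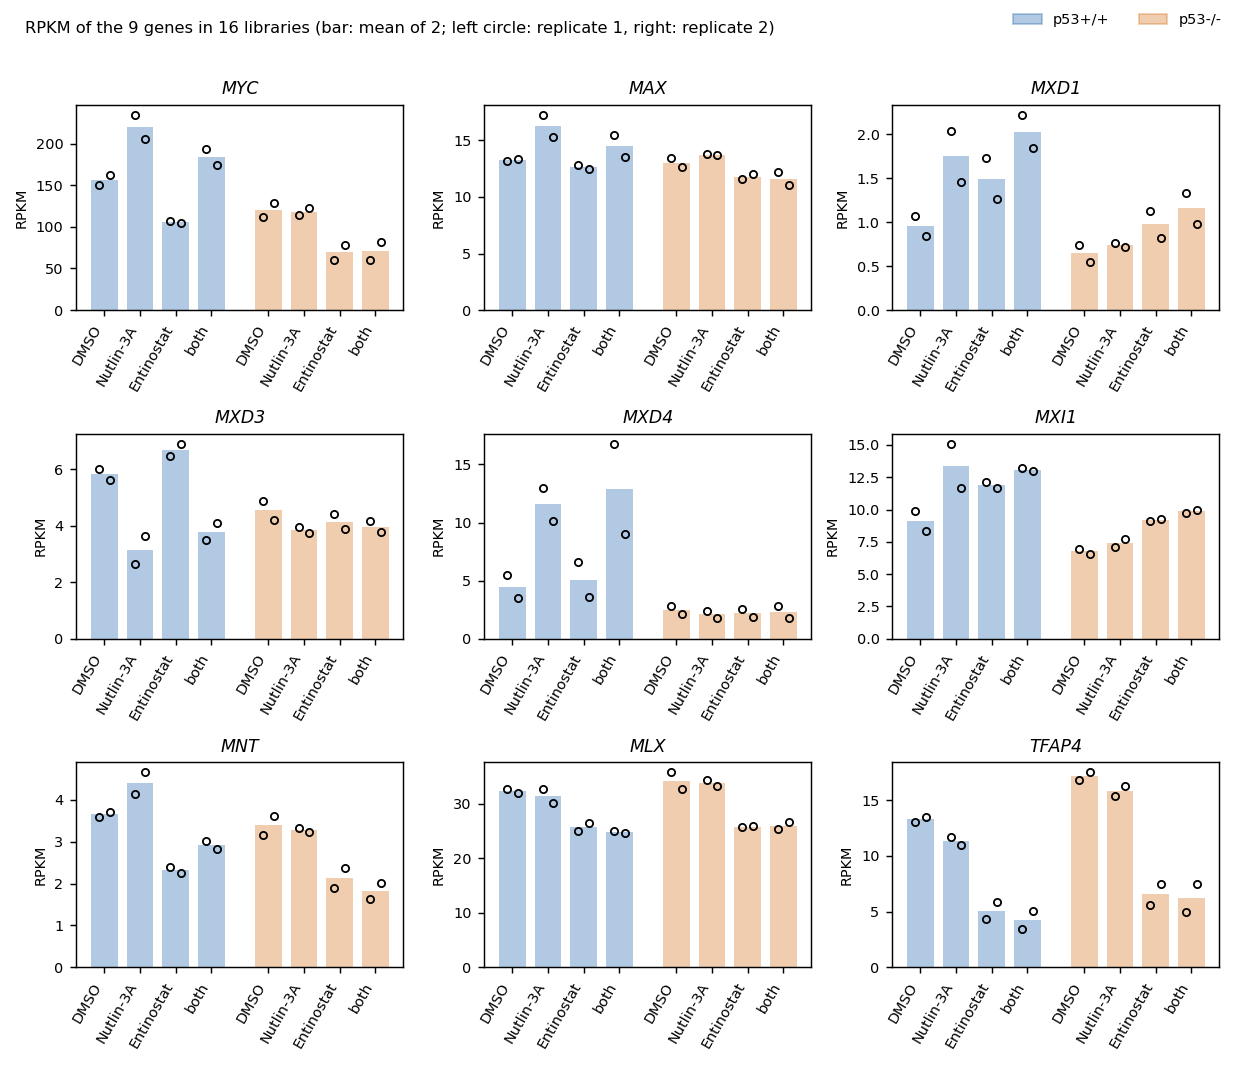
RPKM of each of the 9 genes on linear axes that start at 0, with bars for the mean of 2 replicates and open circles for the libraries, in blue for p53+/+ and in orange for p53-/-. MYC reached 219.8 RPKM on average under Nutlin-3A in p53+/+ cells and 118 in p53-/- cells, and TFAP4 was low in the 8 libraries with Entinostat, from 3.47 to 7.52 RPKM.

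The first question was what each drug did to the network in each genotype. A gene was called where limma gave an adjusted p under 0.05 over all genes tested. In p53+/+ cells Nutlin-3A raised 4 of the 9 genes and lowered 1, where 17.4% of all genes were called. Entinostat raised 1 and lowered 4 (27.5% of all genes called), and the combination raised 3 and lowered 3 (50% of all genes called). In p53-/- cells Nutlin-3A called 0 of 9, with 0 at an unadjusted p under 0.05, and 0% of all genes were called. Entinostat raised 1 and lowered 4 there (28.2% of all genes called), and the combination raised 2 and lowered 4 (31.8%). A block for the replicate number gave 6, 6 and 7 members in p53+/+ cells (31.5%, 44.6% and 64% of all genes) and 0, 6 and 6 in p53-/- cells (0%, 45.5% and 48.8%), for Nutlin-3A, Entinostat and the combination in that order. The p53+/+ count for Nutlin-3A was 3 without DMSO replicate 1, 1 without DMSO replicate 2 and 1 without Nutlin-3A replicate 1, and that for Entinostat was 3, 1, 2 and 3 without DMSO replicate 1, DMSO replicate 2, Entinostat replicate 1 and Entinostat replicate 2. The p53-/- count for Entinostat was 3 without DMSO replicate 2 and 2 without Entinostat replicate 1, and that for the combination was 3 without combination replicate 1. The libraries of drug and DMSO did not overlap for 8, 8 and 9 members in p53+/+ cells, where 62.1%, 69% and 74.8% of all genes did not, and for 4, 7 and 8 members in p53-/- cells, against 32.9%, 65.7% and 67.6% of all genes.

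**Figure D2:**
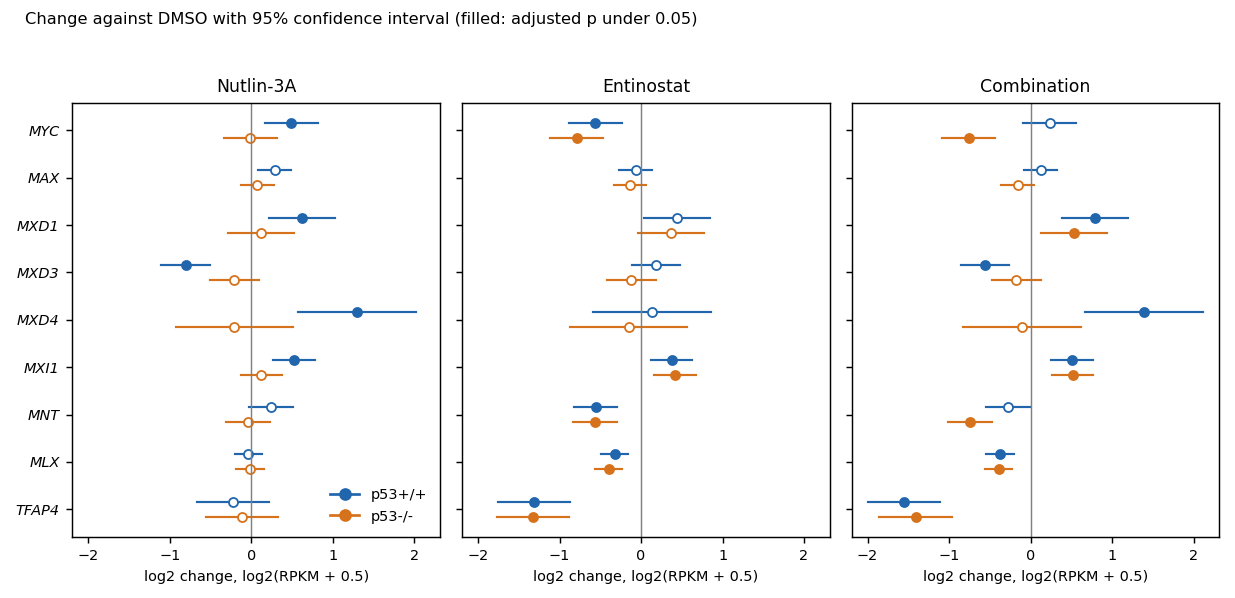
Change of each gene against DMSO in log2(RPKM + 0.5), with its 95% confidence interval, for Nutlin-3A, Entinostat and the combination, p53+/+ in blue and p53-/- in orange, filled where the adjusted p was under 0.05. Under Nutlin-3A no p53-/- point is filled, and under Entinostat the same 5 genes, MYC, MXI1, MNT, MLX and TFAP4, are filled in both genotypes.

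MYC RNA rose under Nutlin-3A and fell under Entinostat in p53+/+ cells, while in p53-/- cells it fell with Entinostat, alone or combined, and was not called with Nutlin-3A. RPKM of MYC in p53+/+ cells was 150.4 and 162 in DMSO, 234 and 205 in Nutlin-3A, 106 and 105 in Entinostat, and 194 and 174 in the combination. Without p53, MYC had 111 and 128 RPKM in DMSO, 114 and 123 in Nutlin-3A, 60.4 and 78.3 in Entinostat, and 60.6 and 81.5 in the combination. All p53+/+ Nutlin-3A libraries lay above all DMSO libraries, and in both genotypes all Entinostat libraries lay below them. The rise under Nutlin-3A in p53+/+ cells was 1.41-fold, a log2 change of 0.49 ± 0.15 (SE, adjusted p = 0.041, and 0.011 with the block). Entinostat gave a 1.48-fold fall in p53+/+ cells (-0.56 ± 0.15, adjusted p = 0.017) and a 1.73-fold fall in p53-/- cells (-0.79 ± 0.15, adjusted p = 0.0035). Under the combination the genotypes parted. The p53+/+ mean was 184 ± 13.7 RPKM (SD, n = 2) against 156 ± 8.08 in DMSO, which was not called (log2 change 0.24, interval -0.09 to 0.56, adjusted p = 0.21). The p53-/- mean was 71.1 ± 14.8 RPKM against 119.7 ± 11.98, a fall of 1.68-fold (-0.76 ± 0.15, adjusted p = 0.0035). The calls were lost without any 1 of the 4 libraries for Nutlin-3A (adjusted p 0.067 to 0.24) and Entinostat (0.053 to 0.11) in p53+/+ cells, and in p53-/- cells without replicate 1 of Entinostat (0.051) or of the combination (0.052).

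MAX, the partner that MYC needs to bind DNA, was not called in any of the 13 comparisons. It had 13.2 and 13.3 RPKM in p53+/+ DMSO libraries, 17.2 and 15.3 in Nutlin-3A, 12.8 and 12.4 in Entinostat and 15.4 and 13.5 in the combination. The p53-/- libraries lay between 11.02 and 13.8 RPKM. The Nutlin-3A libraries of p53+/+ cells lay above all other libraries but 1 of the combination. Their log2 difference from DMSO was 0.29 ± 0.09 (adjusted p = 0.052, and 0.014 with the block). The ratio of MYC to MAX RPKM was 11.8 ± 0.54 (SD, n = 2) in p53+/+ DMSO and 9.23 ± 1.32 in p53-/- DMSO libraries, and it was lowest in p53-/- cells with Entinostat, 5.87 ± 0.89.

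Among the antagonists, MXD4 had the largest rise under Nutlin-3A in p53+/+ cells. MXD4 is one of the MAX dimerization proteins that are linked to the exit from the cell cycle and to differentiation. RPKM of MXD4 in p53+/+ cells was 5.48 and 3.51 in DMSO, 13.02 and 10.1 in Nutlin-3A, 6.58 and 3.59 in Entinostat, and 16.8 and 9.01 in the combination. The 8 p53-/- libraries lay between 1.77 and 2.86 RPKM, below every p53+/+ library. Both Nutlin-3A groups of p53+/+ cells, with and without Entinostat, lay above all other libraries. MXD4 rose 2.57-fold with Nutlin-3A (log2 change 1.29 ± 0.33, adjusted p = 0.018) and 2.87-fold with both drugs (1.39 ± 0.33, adjusted p = 0.0046). Entinostat alone gave 0.14 (interval -0.59 to 0.86, adjusted p = 0.8). For p53-/- cells the log2 difference with Nutlin-3A was -0.21, with an interval from -0.93 to 0.51. Leaving out Nutlin-3A replicate 1 (adjusted p = 0.14) or DMSO replicate 2 (0.16) ended the call for Nutlin-3A, and leaving out combination replicate 1 (0.059) or DMSO replicate 2 (0.052) ended that for the combination.

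MXD1, which rises as many cell types differentiate, rose with Nutlin-3A and with the combination in p53+/+ cells, and narrowly with the combination in p53-/- cells. RPKM of MXD1 in p53+/+ cells was 1.07 and 0.848 in DMSO, 2.04 and 1.46 in Nutlin-3A, 1.73 and 1.26 in Entinostat, and 2.22 and 1.84 in the combination. Without p53, MXD1 had 0.745 and 0.551 RPKM in DMSO, 0.760 and 0.715 in Nutlin-3A, 1.13 and 0.824 in Entinostat, and 1.34 and 0.976 in the combination. No treated p53+/+ library fell within the DMSO range, whereas Nutlin-3A and DMSO overlapped in p53-/- cells. MXD1 rose 1.83-fold in p53+/+ cells with Nutlin-3A (log2 change 0.62 ± 0.19, adjusted p = 0.039) and 2.12-fold with both drugs (0.79 ± 0.19, adjusted p = 0.0041). Its rise under the combination in p53-/- cells was 1.78-fold (0.53 ± 0.19, adjusted p = 0.049). Entinostat alone gave 0.44 in p53+/+ and 0.36 in p53-/- cells, which were not called (adjusted p = 0.095 and 0.17) except with the block (0.005 and 0.015). Leaving out Nutlin-3A replicate 1 (adjusted p = 0.28) ended the Nutlin-3A call, and so did leaving out either DMSO replicate (0.074 and 0.23). The combination call in p53-/- cells was lost without DMSO replicate 1 (0.07), DMSO replicate 2 (0.24) or combination replicate 1 (0.31), and also with pseudocount 1 (0.06), no filter (0.086), median of ratios scaling (0.057) or quantile normalization (0.38).

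MXI1, also called MXD2, was the antagonist with the highest RPKM in the DMSO groups and rose with each drug in p53+/+ cells. It had 9.87 and 8.32 RPKM in p53+/+ DMSO libraries, 15.1 and 11.6 in Nutlin-3A, 12.2 and 11.7 in Entinostat, and 13.2 and 12.97 in the combination. Without p53, MXI1 had 6.97 and 6.55 RPKM in DMSO, 7.07 and 7.73 in Nutlin-3A, 9.09 and 9.28 in Entinostat, and 9.77 and 9.95 in the combination. Every treated group lay above its DMSO group without overlap. The rises in p53+/+ cells were 1.47-fold under Nutlin-3A (log2 change 0.52 ± 0.12, adjusted p = 0.0086), 1.31-fold under Entinostat (0.38 ± 0.12, adjusted p = 0.033) and 1.44-fold under the combination (0.51 ± 0.12, adjusted p = 0.0039). The p53-/- rises were 1.36-fold under Entinostat (0.42 ± 0.12, adjusted p = 0.02) and 1.46-fold under the combination (0.51 ± 0.12, adjusted p = 0.0072), while Nutlin-3A gave 0.12 (interval -0.13 to 0.38). The p53+/+ call for Nutlin-3A was lost without Nutlin-3A replicate 1 or DMSO replicate 2 (adjusted p = 0.1 in both) and the Entinostat call without Entinostat replicate 1 (0.18) or 2 (0.074) or DMSO replicate 2 (0.24). The p53-/- call for Entinostat was lost without any 1 of the 4 libraries (0.057 to 0.12), and the combination call without combination replicate 1 (0.052) or DMSO replicate 2 (0.054).

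MXD3 fell under Nutlin-3A in p53+/+ cells, where MXD1, MXD4 and MXI1 rose. It is the MXD protein that is expressed in proliferating cells, in S phase. RPKM of MXD3 in p53+/+ cells was 6.01 and 5.62 in DMSO, 2.65 and 3.64 in Nutlin-3A, 6.45 and 6.91 in Entinostat, and 3.48 and 4.10 in the combination. The p53-/- libraries ran from 3.76 to 4.89 RPKM. Nutlin-3A libraries of p53+/+ cells lay below all DMSO and Entinostat libraries of that genotype. The fall was 1.85-fold under Nutlin-3A (log2 change -0.81 ± 0.14, adjusted p = 0.0016) and 1.53-fold under the combination (-0.56 ± 0.14, adjusted p = 0.0054, lost without combination replicate 1 at 0.052). The call under Nutlin-3A held when each of the 4 libraries was left out in turn. Without p53 the Nutlin-3A value was -0.21 (interval -0.51 to 0.09, adjusted p = 0.96).

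MNT, the antagonist that is present in resting and dividing cells alike, fell with Entinostat in both genotypes. RPKM of MNT in p53+/+ cells was 3.59 and 3.71 in DMSO, 4.14 and 4.66 in Nutlin-3A, 2.39 and 2.25 in Entinostat, and 3.02 and 2.83 in the combination. Without p53, MNT had 3.17 and 3.61 RPKM in DMSO, 3.33 and 3.23 in Nutlin-3A, 1.90 and 2.36 in Entinostat, and 1.63 and 2.02 in the combination. Every library with Entinostat lay below every library without it. Under Entinostat the fall was 1.57-fold in p53+/+ (log2 change -0.56 ± 0.12, adjusted p = 0.0071) and 1.59-fold in p53-/- cells (-0.57 ± 0.12, adjusted p = 0.0064). The combination gave a fall of 1.85-fold in p53-/- cells (-0.74 ± 0.12, adjusted p = 0.0015) but in p53+/+ cells -0.28, which was not called (adjusted p = 0.078, and 0.035 with the block). The Entinostat call was lost without DMSO replicate 2 in p53+/+ cells (adjusted p = 0.053) and without Entinostat replicate 1 (0.084) or DMSO replicate 2 (0.058) in p53-/- cells.

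MLX fell with Entinostat as well, by less and with little spread. It had 32.7 and 31.9 RPKM in p53+/+ DMSO, 32.7 and 30.1 in Nutlin-3A, 25.0 and 26.4 in Entinostat, and 24.9 and 24.6 in the combination. Without p53, MLX had 35.7 and 32.6 RPKM in DMSO, 34.3 and 33.2 in Nutlin-3A, 25.7 and 25.9 in Entinostat, and 25.3 and 26.6 in the combination. The 8 libraries with Entinostat lay below the 8 without it. The falls were 1.26-fold and 1.33-fold under Entinostat in p53+/+ and p53-/- cells (log2 changes -0.33 and -0.40, adjusted p = 0.0099 and 0.0038) and 1.31-fold and 1.32-fold under the combination (-0.38 and -0.39, adjusted p = 0.0019 and 0.0036). Quantile normalization brought the combination in p53+/+ cells to -0.16 (adjusted p = 0.075). The Entinostat call in p53+/+ cells was lost without DMSO replicate 1 (0.061), DMSO replicate 2 (0.052) or Entinostat replicate 1 (0.1).

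TFAP4 had the largest change with Entinostat among the 9 genes in each genotype. RPKM of TFAP4 in p53+/+ cells was 13.04 and 13.5 in DMSO, 11.7 and 10.9 in Nutlin-3A, 4.31 and 5.85 in Entinostat, and 3.47 and 5.08 in the combination. Without p53, TFAP4 had 16.8 and 17.5 RPKM in DMSO, 15.4 and 16.2 in Nutlin-3A, 5.63 and 7.51 in Entinostat, and 4.97 and 7.52 in the combination. All 8 libraries with Entinostat lay below the lowest of those without it. The fall was 2.61-fold in both p53+/+ (log2 change -1.32 ± 0.20, adjusted p = 0.0015) and p53-/- cells (-1.33 ± 0.20, adjusted p = 0.0014). Under the combination it was 3.11-fold (-1.55 ± 0.20, adjusted p = 0.00014) and 2.75-fold (-1.41 ± 0.20, adjusted p = 0.00086). Each of these 4 calls held when the 4 libraries behind it were left out in turn. Nutlin-3A alone gave -0.22 in p53+/+ cells (interval -0.67 to 0.22, adjusted p = 0.51).

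The next question was whether the genotypes differed, first without drug. In DMSO 0 of the 9 genes were called by limma between p53-/- and p53+/+ cells, where 4.69% of all genes were called (1.56% higher and 3.13% lower). At an unadjusted p under 0.05 there were 3 members, for which the share of all genes at that threshold is not given here. With the block 2 were lower in p53-/- cells, against 13.1% of all genes called, namely MXD4 (log2 difference -0.72, adjusted p = 0.3, and 0.0025 with the block) and MXI1 (-0.40, adjusted p = 0.083, and 0.022 with the block). MYC averaged 119.7 RPKM in p53-/- and 156 in p53+/+ DMSO libraries, without overlap, a log2 difference of -0.38 (interval -0.71 to -0.06, adjusted p = 0.21). TFAP4 averaged 17.1 and 13.3 RPKM (0.36, interval -0.08 to 0.80, adjusted p = 0.44). MXD1 (-0.35), MXD3 (-0.32), MNT (-0.10), MAX (-0.03) and MLX (0.08) had adjusted p values of 0.26 to 0.94.

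The drug responses were then compared between genotypes, as the response in p53+/+ minus that in p53-/- cells. For Nutlin-3A 0 members were called by limma, where 6.78% of all genes were called (3.49% higher and 3.29% lower). At an unadjusted p under 0.05 there were 4 members, again without the share of all genes at that threshold. With the block 3 were called and 17.1% of all genes, namely MXD4 (difference 1.50 ± 0.47, adjusted p = 0.083, and 0.00012 with the block), MXD3 (-0.60 ± 0.19, 0.096 and 0.041) and MXD1 (0.50 ± 0.26, 0.33 and 0.037). MYC had a difference of 0.50 in its Nutlin-3A response (interval 0.05 to 0.96, adjusted p = 0.21, and 0.074 with the block). MXI1 (0.40), MNT (0.28), MAX (0.21), MLX (-0.02) and TFAP4 (-0.11) had adjusted p values of 0.2 to 0.94. Without Nutlin-3A replicate 2 of p53+/+ cells, MXD3 (-0.79, adjusted p = 0.028) and MXI1 (0.58, adjusted p = 0.047) were called. For Entinostat 0 members and 0% of all genes were called, with 0 members at an unadjusted p under 0.05 and 0 with the block (0.0321% of all genes). The interval of the difference ran from -0.23 to 0.69 for MYC and from -0.61 to 0.64 for TFAP4. The other members had differences from -0.04 (MXI1) to 0.31 (MXD3), with MAX at 0.07, MXD1 at 0.08, MXD4 at 0.29, MNT at 0.01 and MLX at 0.07.

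For the combination MYC alone was called, where 5.78% of all genes were called (1.97% higher and 3.81% lower). Its difference was 0.99 ± 0.21 (interval 0.54 to 1.45, adjusted p = 0.02, and 0.0026 with the block), since the p53+/+ libraries stood at 194 and 174 RPKM and the p53-/- libraries at 60.6 and 81.5. Leaving out libraries gave 0.78 to 1.21. It was no longer called without combination replicate 1 of p53+/+ (adjusted p = 0.084) or p53-/- cells (0.069), p53+/+ DMSO replicate 1 (0.076) or 2 (0.063), or p53-/- DMSO replicate 2 (0.091). With the block MXD4 (1.49, adjusted p = 0.081, and 0.00029 with the block) and MNT (0.47, 0.13 and 0.038) were called too, and 23.8% of all genes. MXD4 was also called without combination replicate 2 of p53+/+ cells (1.92, adjusted p = 0.019). MAX (0.28), MXD1 (0.27), MLX (0.01), MXI1 (-0.01), TFAP4 (-0.14) and MXD3 (-0.38) had adjusted p values of 0.22 to 0.98.

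**Figure D3:**
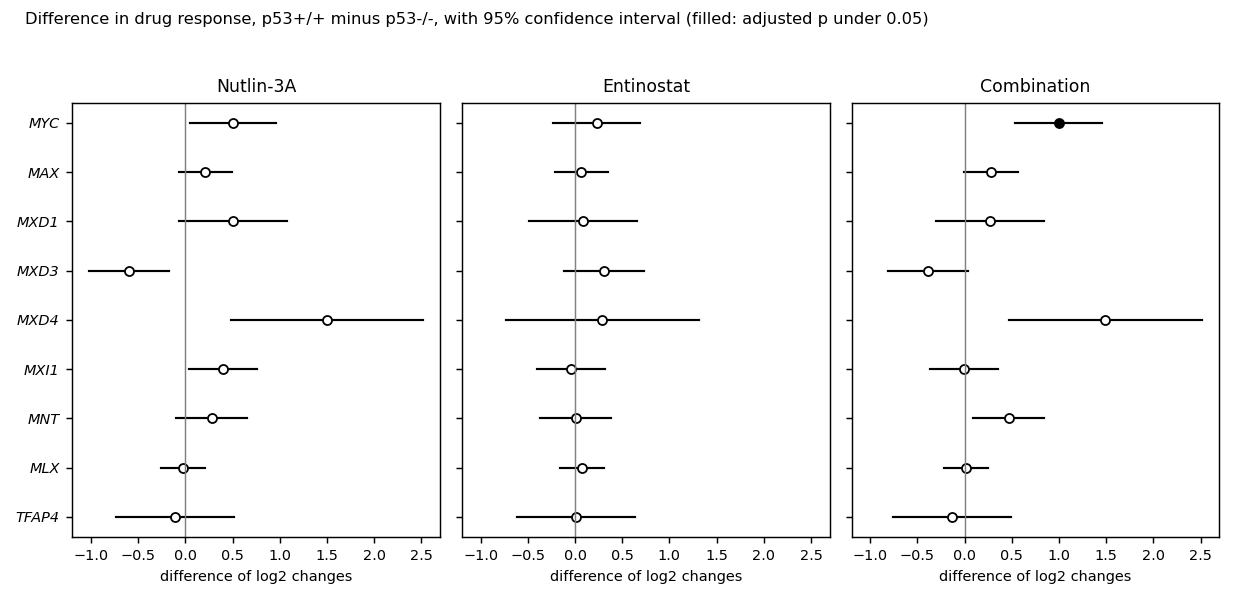
Difference between the genotypes in the response to Nutlin-3A, Entinostat and the combination (p53+/+ minus p53-/-, log2 scale) with 95% confidence intervals, filled where the adjusted p was under 0.05. MYC under the combination, at 0.99, is the filled point, and the intervals of MXD4 are the widest of the 9 genes.

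Within p53+/+ cells, the combination was set against each drug alone. MYC was 1.74-fold higher in the combination than in Entinostat (log2 change 0.80 ± 0.15, adjusted p = 0.0041), a call that held when each of the 4 libraries was left out. Against Nutlin-3A it gave -0.26 (interval -0.58 to 0.07, adjusted p = 0.2). Of the 9 genes 2 were higher and 1 lower against Entinostat, where 14.8% of all genes were called (5.16% higher and 9.69% lower, and 31.3% with the block). The other two were MXD4, 2.54-fold higher (1.25 ± 0.33, adjusted p = 0.025), and MXD3, 1.76-fold lower (-0.74 ± 0.14, adjusted p = 0.0038). Against Nutlin-3A 3 were lower and 0 higher, where 34.7% of all genes were called (16.6% higher and 18.1% lower, and 52.4% with the block). These were TFAP4 (2.64-fold, adjusted p = 0.00099), MNT (1.50-fold, adjusted p = 0.0084) and MLX (1.27-fold, adjusted p = 0.0067). The MXD4 call was lost without combination replicate 1 (0.23) or Entinostat replicate 2 (0.22), the MNT call without Nutlin-3A replicate 2 (0.061) and the MLX call without Nutlin-3A replicate 1 (0.062). MXD1 was called against Entinostat with the block alone (0.35, adjusted p = 0.23, and 0.025 with the block). The rest of the members were not called against Nutlin-3A (MXD3 0.25, MXD1 0.18, MXD4 0.10, MXI1 -0.02 and MAX -0.16) or against Entinostat (MNT 0.28, MAX 0.19, MXI1 0.13, MLX -0.05 and TFAP4 -0.23). The combination was also compared with the sum of both log2 responses. This takes each drug to have had the same dose in the combination as alone, which the annotation used here does not state. 0 of 9 genes and 0% of all genes departed from the sum by limma, and 0 with the block. At an unadjusted p under 0.05 there was 1 member (MXI1, -0.39, interval -0.75 to -0.03, adjusted p = 0.97), without the share of all genes at that threshold. For MYC the departure was 0.31, with an interval from -0.15 to 0.77. The others were MXD1 (-0.27), MAX (-0.10), MXD4 (-0.04), MLX (-0.01), TFAP4 (-0.01), MNT (0.04) and MXD3 (0.06), with adjusted p values of 0.97 or more. These comparisons share the same p53+/+ libraries.

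Set against its antagonists in the same library, MYC RNA stayed in the range of the DMSO libraries under Nutlin-3A and lay below it under Entinostat. The sum of MXD1, MXD3, MXD4, MXI1 and MNT was 24.02 ± 2.83 RPKM (SD, n = 2) in p53+/+ DMSO, 34.2 ± 3.84 in Nutlin-3A, 27.5 ± 2.58 in Entinostat and 34.7 ± 5.64 in the combination. Without p53 the sum lay between 17.4 and 19.1 RPKM in the 4 groups. MYC divided by this sum was 5.78 and 7.35 in the p53+/+ DMSO libraries, 6.34 and 6.51 in Nutlin-3A, 3.63 and 4.08 in Entinostat, and 5.00 and 5.67 in the combination. For p53-/- cells the ratio was 5.97 and 7.51 in DMSO, 6.50 and 7.13 in Nutlin-3A, 3.17 and 4.30 in Entinostat, and 3.07 and 4.40 in the combination. The p53+/+ Nutlin-3A libraries lay within the DMSO range, and the libraries with Entinostat, alone or combined, lay below it in both genotypes. The ratio is given as a description and was not tested. The makeup of the sum shifted as well. MXD4 made up 21.1% and 15.96% of it in the p53+/+ DMSO libraries, 35.2% and 32.2% in Nutlin-3A, and 43.4% and 29.3% in the combination, against 9.69% to 15.3% in the p53-/- libraries. These are ratios of RNA, and the proteins were not measured.

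**Figure D4:**
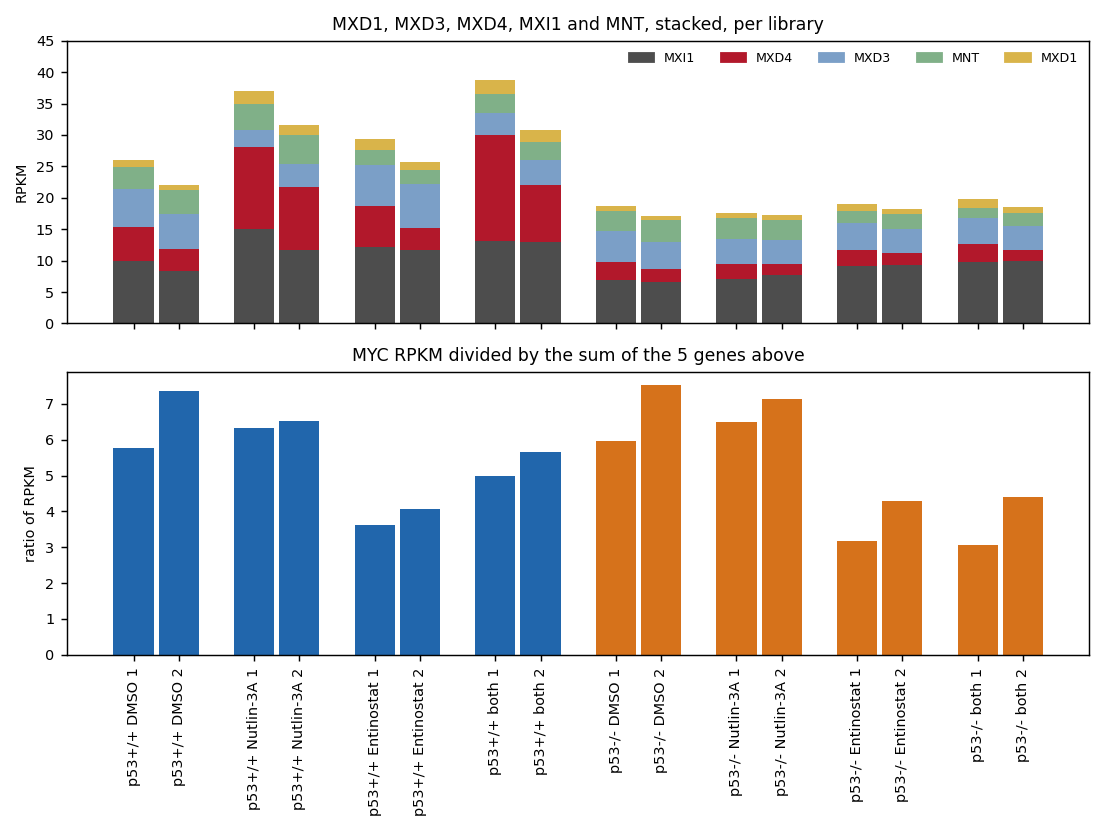
Above, the RPKM of MXI1, MXD4, MXD3, MNT and MXD1 stacked for each library. Below, MYC RPKM divided by that sum, p53+/+ libraries in blue and p53-/- libraries in orange, both on axes from 0. The ratio was 3.07 to 4.40 in the 4 p53-/- libraries with Entinostat and 5.97 to 7.51 in the 4 without it.

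Of the genes that MYC is known to activate, some fell in each of the 5 comparisons with DMSO that had calls, also under Nutlin-3A in p53+/+ cells, where MYC RNA was higher. The list holds 44 genes of ribosome assembly, nucleotide and polyamine synthesis, translation and amino acid transport, and 42 were tested (CCND2 and BCAT1 were below the filter). With p53, Nutlin-3A lowered 9 of 42, or 21.4% against 9.5% of all genes, Entinostat lowered 18 (42.9% against 12.4%), and the combination lowered 29 (69% against 26.8%). Without p53, 0 of 42 fell under Nutlin-3A (0% of all genes), 18 under Entinostat (42.9% against 13.3%) and 21 under the combination (50% against 14.7%). The shares of all genes were not matched for level, and the scale used understates changes of low genes. In the list TERT (1.13 RPKM) and TFB2M (15.9) had the lowest means, whereas MAX at 13.4 RPKM already stood above 65.9% of genes tested. How much of the excess goes with level was not tested. The median log2 change of the list was -0.24, -0.28 and -0.54 in p53+/+ cells and -0.05, -0.29 and -0.30 in p53-/- cells, in the same order, while that of all genes tested stayed between -0.03 and 0.03. The list had 1 gene called higher, NME1 with Nutlin-3A in p53+/+ cells (0.29, lost without 3 of 4 libraries at adjusted p 0.13 to 0.27), which was chosen after its values were seen. With the block 20, 28 and 34 fell in p53+/+ and 0, 28 and 30 in p53-/- cells. Of all genes it called 31.5%, 44.6% and 64% in either direction in p53+/+ and 0%, 45.5% and 48.8% in p53-/- cells. These shares are also the background for the block counts against DMSO in the lists below. Quantile normalization gave fewer falls, with 4 of 42 under Nutlin-3A in p53+/+ cells (9.52% against 7.8% of all genes). In p53-/- cells it gave 9 under Entinostat (21.4% against 11.4%) and 13 under the combination (31% against 12.8%).

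UBTF, which opens ribosomal RNA genes to transcription, had the largest fall of this list in each of the 5 comparisons with calls. Its mean was 31.8 RPKM in p53+/+ DMSO, 20.1 in Nutlin-3A (log2 change -0.65), 14.01 in Entinostat (-1.16) and 8.55 in the combination (-1.85, adjusted p = 6.1e-06). Without p53, UBTF had 29.2 RPKM in DMSO and 29.2 in Nutlin-3A, but 14.1 in Entinostat (-1.03) and 13.4 in the combination (-1.10). Under Nutlin-3A SLC7A5 (-0.57) and SLC1A5 (-0.41), transporters of amino acids, and TERT, the telomerase catalytic subunit (-0.51), also fell. Under Entinostat PPAN, a ribosome assembly factor, MYBBP1A, a nucleolar protein, and PPRC1, a coactivator of mitochondrial genes, fell by 1.04, 0.97 and 0.99 on the log2 scale in p53+/+ cells and by 0.89, 0.97 and 0.90 in p53-/- cells. The combination response of UBTF differed between the genotypes by -0.75 (adjusted p = 0.042) and that of SLC1A5 by -0.40 (0.045). These were 2 of 42 genes, or 4.76% against 3.81% of all genes, a share near the background. Over all genes the block called 23.8% in either direction. With the block 13 were lower, without 1 library 0 to 7 were, and each of both calls was lost without any of 7 of the 8 libraries (adjusted p 0.07 to 0.15). The fall of UBTF under Nutlin-3A was lost without DMSO replicate 2 (0.051), that of TERT without any 1 of the 4 libraries (0.09 to 0.23), and that of PPRC1 under Entinostat without Entinostat replicate 1 or DMSO replicate 2 in p53+/+ (0.055 to 0.073) and p53-/- cells (0.08 to 0.11).

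The counts of this list rest on few libraries. Under Nutlin-3A 4, 2 and 4 genes fell without p53+/+ DMSO replicate 1, DMSO replicate 2 and Nutlin-3A replicate 2. Under Entinostat in p53+/+ cells 11, 5 and 4 fell without DMSO replicate 1, DMSO replicate 2 and Entinostat replicate 1, and in p53-/- cells 11, 6 and 5 without the same libraries of that genotype. Under the combination in p53-/- cells 9 fell without DMSO replicate 2 and 5 without combination replicate 1, whereas in p53+/+ cells 22 to 30 fell. Promoter windows were found for 37 of the 42 genes, and 21 of these (56.8%) held CACGTG, against 12.8% of 9378 tested genes with a window. The list was chosen as genes that MYC is known to activate, so a high share with its site is no independent result. Whether these genes changed through MYC was not tested. CAGCTG was found in 8 of the 37 (21.6%), against 22.3%.

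**Figure D5:**
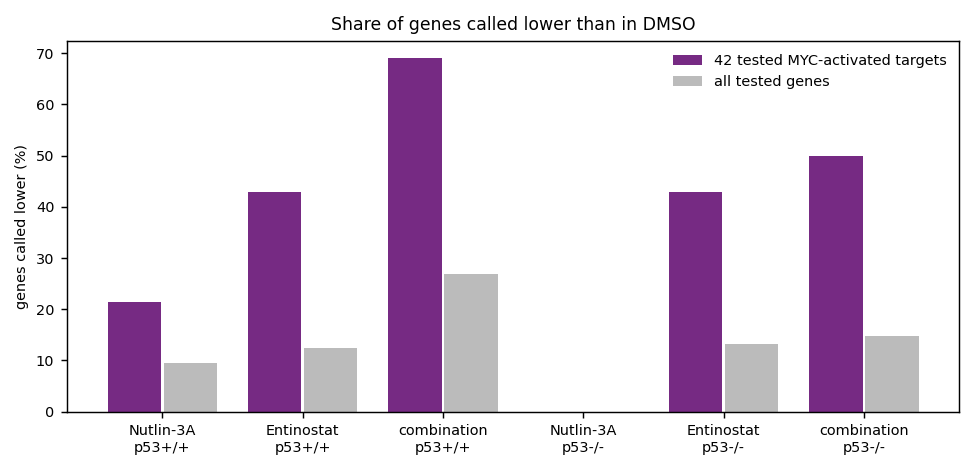
Share of genes called lower than in DMSO, in percent on an axis from 0, for the 42 tested MYC-activated targets (purple) and for all 12466 tested genes (grey). The purple bars stand at 69% for the combination in p53+/+ cells and 50% in p53-/- cells, and both bars are at 0 for Nutlin-3A in p53-/- cells. The grey bars are not matched to the targets for expression level. Under quantile normalization, which is not drawn, the first bar pair would stand at 9.52% and 7.8%.

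Genes that MYC is known to repress were higher wherever they were called against DMSO. Of 8 tested, Nutlin-3A raised 2 in p53+/+ cells, CDKN1A (3.54) and the stress gene GADD45A (1.78), both also known as p53 targets, and 5 were higher with the block. Entinostat raised 2, the cyclin dependent kinase inhibitor gene CDKN2B (1.52) and CLU (1.11), 7 with the block, and the combination raised 5, 8 with the block, which were CDKN1A (3.51), CDKN2B (1.81), NDRG1 (1.61), GADD45A (1.55) and CLU. The medians of the list were 0.58, 0.57 and 1.37. Without p53, 0 were called with Nutlin-3A (median -0.03), 3 rose under Entinostat, CDKN1A (1.85), CDKN2B (1.50) and CLU (1.13), 5 with the block, and with GADD45A 4 rose under the combination, 6 with the block (medians 0.47 and 0.66). Of all genes, 7.89%, 15.1% and 23.2% were called higher in p53+/+ cells and 0%, 15% and 17.1% in p53-/- cells. CLU was lost under Entinostat without DMSO replicate 1 or Entinostat replicate 1 in p53+/+ cells (adjusted p 0.061 to 0.075) and without Entinostat replicate 1 in p53-/- cells (0.083), where CDKN1A was lost too (0.062). The count under the combination in p53-/- cells was 2 without combination replicate 1.

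The SIN3 complex, through which the antagonists repress, was tested with 10 subunits. Nutlin-3A lowered 4 in p53+/+ cells, SAP30 (-0.93), SIN3A (-0.42), RBBP7 (-0.38) and HDAC2 (-0.32), with a median of -0.31, and 7 fell with the block. The count was 1 without DMSO replicate 1, 2 without DMSO replicate 2 and 2 without Nutlin-3A replicate 1, and SAP30 held in each of these fits. Entinostat called 0 of 10 by limma in p53+/+ cells, 1 higher and 1 lower with the block, and the combination lowered the same 4 subunits, by 0.86 for SIN3A, 0.49 for HDAC2, 0.47 for SAP30 and 0.33 for RBBP7, with 1 higher and 7 lower with the block. Without p53, SIN3A alone fell, under Entinostat (-0.36) and the combination (-0.40). These calls were lost without DMSO replicate 1, and the first also without either Entinostat replicate (adjusted p 0.06 to 0.097). Under the combination in p53+/+ cells SAP30 and RBBP7 were lost without combination replicate 1 or 1 of the DMSO replicates (0.058 to 0.11). The share of all genes that fell in p53+/+ cells was 9.5% with Nutlin-3A, 12.4% with Entinostat and 26.8% with both drugs. In p53-/- cells 13.3% of all genes fell with Entinostat and 14.7% with both drugs. The 1 of 10 subunits that fell there was no higher a share.

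The 13 cofactors of MYC that were tested include histone acetyltransferase and chromatin remodelling subunits. Nutlin-3A lowered 2 in p53+/+ cells, ACTL6A (-0.45) and WDR5 (-0.38), Entinostat lowered 3, and the combination lowered 9 and raised ZBTB17 (0.63), where 9.5%, 12.4% and 26.8% of all genes fell. KAT5, an acetyltransferase, WDR5, a scaffold that binds MYC, and SMARCB1 fell under Entinostat by 0.72, 0.56 and 0.51 in p53+/+ cells and by 0.66, 0.57 and 0.57 in p53-/- cells, where RUVBL2 fell as well (-0.30). The same 4 fell with the combination in p53-/- cells, where 13.3% of all genes fell with Entinostat and 14.7% with the combination. KAT5, WDR5 and SMARCB1 held under Entinostat and the combination against DMSO without each library in turn, and RUVBL2 did not (adjusted p 0.071 to 0.12). WDR5 was lost under Nutlin-3A without Nutlin-3A replicate 1, Nutlin-3A replicate 2 or DMSO replicate 2 (0.071 to 0.13), and the combination count in p53+/+ cells was 4 without combination replicate 1 and 5 without DMSO replicate 2. With the block 1 rose under Nutlin-3A, and 4, 6 and 10 fell in p53+/+ cells for Nutlin-3A, Entinostat and the combination, and 7 with Entinostat and 7 with the combination in p53-/- cells.

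Genes that set the stability of MYC protein were both higher and lower under Nutlin-3A in p53+/+ cells. Of 12 tested, 3 rose and 4 fell, 5 with the block, with a median of -0.25, where 7.89% of all genes rose and 9.5% fell. FBXW7, the ubiquitin ligase subunit that marks MYC for degradation, rose from 4.45 to 8.75 RPKM (log2 change 0.91 ± 0.11, adjusted p = 0.00021). AURKA, a mitotic kinase that can shield MYC proteins from that ligase, fell from 43.4 to 16.4 RPKM (-1.40), PIM1, a kinase that phosphorylates MYC, fell by 0.86, and KIAA1524 (CIP2A), which protects MYC from dephosphorylation, fell by 0.92. In the difference of the Nutlin-3A response between the genotypes, 2 of the 12 were called higher and 3 lower. Of all genes 3.49% were called higher and 3.29% lower in that comparison. The responses of FBXW7 (0.89, adjusted p = 0.006) and AURKA (-1.45, adjusted p = 0.0039) differed between the genotypes, also without each library in turn. The fall of KIAA1524 was lost without Nutlin-3A replicate 1 or DMSO replicate 2 (0.057 to 0.076), and 2 genes of the list fell without either of these. Entinostat lowered AURKA and GSK3A, by 0.63 and 0.62 in p53+/+ and by 0.71 and 0.69 in p53-/- cells, and raised PIM1 in p53+/+ cells, by 0.45, a call lost without any 1 of the 4 libraries (0.098 to 0.23). Of all genes 15.1% rose and 12.4% fell with Entinostat in p53+/+ cells, and 15% and 13.3% in p53-/- cells, where PIM1 was called higher with the block alone (0.41, adjusted p = 0.068, and 0.035 with the block). AURKA under Entinostat was lost without Entinostat replicate 1 or DMSO replicate 2 of either genotype (0.065 to 0.13). The combination raised 3 and lowered 6 in p53+/+ cells (3 and 7 with the block, where 23.2% of all genes rose and 26.8% fell), where 1 rose without DMSO replicate 1 or either combination replicate, and in p53-/- cells it raised PIM1 (0.45) and TRIM32 (0.29), calls lost without combination replicate 1 or DMSO replicate 2, and lowered AURKA (-0.76) and GSK3A (-0.72), where 17.1% of all genes rose and 14.7% fell. The block added the rise of GSK3B there (0.21, adjusted p = 0.079, and 0.043 with the block).

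Other genes of the wider network were tested as a list of 7 (MYCN was below the filter). Nutlin-3A called 0 of 7 in both genotypes by limma, and MLXIPL alone was higher with the block in p53+/+ cells (0.44, adjusted p = 0.073, and 0.015 with the block). Entinostat raised MLXIPL, the MLX partner ChREBP, from 4.37 to 9.12 RPKM in p53+/+ cells (log2 change 0.98) and from 3.53 to 6.48 in p53-/- cells (0.79), and it raised MYCL, a paralog of MYC, by 0.81 and 0.62. USF1 and USF2, which bind the same E-box, fell by 0.53 and 0.47 in p53+/+ and by 0.60 and 0.55 in p53-/- cells. TFE3 was called lower in p53+/+ cells (-0.41), so that 2 rose and 3 fell there, and 2 rose and 2 fell in p53-/- cells. Under the combination 2 rose and 4 fell in p53+/+ cells and 2 rose and 2 fell in p53-/- cells. Of all genes 15.1% rose and 12.4% fell with Entinostat in p53+/+ cells, 15% and 13.3% in p53-/- cells, and with the combination 23.2% and 26.8%, and 17.1% and 14.7%. The block added 1 rise, MGA, to Entinostat in both genotypes and to the combination in p53-/- cells (adjusted p 0.06 to 0.18, and 0.0034 to 0.024 with the block). Under Entinostat 2 fell in p53+/+ cells without DMSO replicate 1 and 1 without Entinostat replicate 1, and under the combination 1 fell without DMSO replicate 1 or either combination replicate. The p53-/- calls of MLXIPL and MYCL under Entinostat were lost without Entinostat replicate 1 (adjusted p 0.059 to 0.064).

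ARRDC4, a known target of MLX paired with MLXIP, was the 1 of 2 such genes that passed the filter, as TXNIP had at most 0.090 RPKM in any group mean. It averaged 2.79 RPKM in p53+/+ DMSO, 7.25 in Nutlin-3A, 7.61 in Entinostat and 23.0 in the combination, and 0.592 to 1.09 in the p53-/- groups. It rose by 1.25 on the log2 scale with either drug and by 2.83 with the combination (adjusted p = 5.1e-05), and its combination response differed between the genotypes by 2.35 (adjusted p = 0.012). The calls for single drugs were lost without replicate 1 of the drug or DMSO replicate 2 (0.11 to 0.15), and the difference without p53+/+ combination replicate 1, p53+/+ DMSO replicate 2 or p53-/- DMSO replicate 2 (0.053 to 0.058).

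Among genes linked to TFAP4, 6 were tested. Nutlin-3A in p53+/+ cells raised CDKN1A (3.54) and CCND1, cyclin D1 (0.48), and lowered the kinase gene CDK2 (-0.84), Entinostat raised SNAI1 (0.92), and the combination raised CDKN1A and SNAI1 (0.98) and lowered CDK2 (-0.78). Without p53, CDKN1A rose under Entinostat (1.85), with TFAP4 at 6.57 RPKM against 17.1 in DMSO, and CDKN1A (1.98) and SNAI1 (0.85) rose under the combination. With p53, TFAP4 fell as much under Entinostat. There CDKN1A averaged 113 RPKM against 77.7 in DMSO, which was called with the block alone (log2 difference 0.55, adjusted p = 0.3, and 0.0041 with the block). The Entinostat response of CDKN1A in p53+/+ minus that in p53-/- cells was -1.30. It was called by limma with the block alone (adjusted p = 0.022). A link between TFAP4 and CDKN1A was not tested. With the block 2 genes of the list rose and 1 fell under Entinostat in p53+/+ cells, and 2 rose and 2 fell in p53-/- cells, and under the combination 2 rose and 2 fell, and 2 rose and 1 fell. Of all genes 7.89%, 15.1% and 23.2% rose with Nutlin-3A, Entinostat and the combination in p53+/+ cells, and 15% and 17.1% with Entinostat and the combination in p53-/- cells. In the same order 9.5%, 12.4% and 26.8% of all genes fell in p53+/+ cells, and 13.3% and 14.7% in p53-/- cells. CDKN1A is a member of 2 lists. The rise of CCND1 was lost without 3 of 4 libraries (adjusted p 0.13 to 0.31), as was each rise of SNAI1 (0.054 to 0.31).

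Neighbours of MYC in band 8q24 were examined beside it, 5 of 7 passing the filter. PVT1, the noncoding RNA gene next to MYC, averaged 13.2 RPKM in p53+/+ DMSO, 19.0 in Nutlin-3A, 12.2 in Entinostat and 17.3 in the combination. Without p53, PVT1 averaged 11.1, 9.89, 9.48 and 9.28 RPKM in the same order. Nutlin-3A raised PVT1 by 0.51 (adjusted p = 0.013) and FAM84B by 0.74 (adjusted p = 0.00012) in p53+/+ cells, and both responses differed between the genotypes (0.67, adjusted p = 0.038, and 0.63, adjusted p = 0.0093). The PVT1 call was lost without Nutlin-3A replicate 1 or DMSO replicate 2 (0.1), and the differences without any of 7 of the 8 libraries for PVT1 (0.063 to 0.15) and without p53+/+ Nutlin-3A replicate 1 for FAM84B (0.051). The response of 3.49% of all genes was called higher in that comparison. Entinostat lowered CCAT1, a noncoding RNA gene upstream of MYC, by 1.50 in p53+/+ and 1.12 in p53-/- cells and CASC8 by 0.53 and 0.45, 2 of 5 genes in each genotype, and it raised FAM84B in p53-/- cells (0.33). Of all genes 7.89% rose with Nutlin-3A in p53+/+ cells, and 12.4% and 13.3% fell with Entinostat in p53+/+ and p53-/- cells. With the block 1 rose and 2 fell under Entinostat in p53+/+ cells, and 2 rose and 3 fell in p53-/- cells. The combination raised 2 and lowered 1 in each genotype, and lowered 2 with the block in p53-/- cells, where 23.2% of all genes rose and 26.8% fell in p53+/+ and 17.1% and 14.7% in p53-/- cells. Each of the 5 Entinostat calls was lost without 3 of the 4 libraries (0.055 to 0.31). The sources used here do not say whether the counting used strand, so overlapping transcripts in this band cannot be told apart.

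Regulators of MYC transcription were tested as a list of 11 (LEF1 was below the filter). Under Nutlin-3A in p53+/+ cells STAT3 rose (1.04) and E2F1 (-1.62), YY1 (-0.43) and CTCF (-0.43) fell. Under Entinostat STAT3 rose (0.50) and YY1 (-0.67), FUBP1 (-0.63), TCF7L2 (-0.47) and CNBP (-0.39) fell, and in p53-/- cells TCF7L2 (-0.60) and YY1 (-0.56) fell. The combination raised 2 and lowered 6 in p53+/+ cells and lowered 2 in p53-/- cells. Of all genes 7.89%, 15.1% and 23.2% rose and 9.5%, 12.4% and 26.8% fell with Nutlin-3A, Entinostat and the combination in p53+/+ cells, and 13.3% and 14.7% fell with Entinostat and the combination in p53-/- cells. With the block 1 rose and 4 fell, 2 rose and 5 fell, and 3 rose and 6 fell in p53+/+ cells, and 3 fell with the combination in p53-/- cells. E2F1 and STAT3 held under Nutlin-3A without each library in turn, whereas YY1 and CTCF did not (adjusted p 0.057 to 0.15). Under Entinostat the 4 falls in p53+/+ cells became 0 without Entinostat replicate 1, 1 without DMSO replicate 2 and 2 without either of the other two libraries, and both falls in p53-/- cells were lost without Entinostat replicate 1 and without 1 of the DMSO replicates each (0.06 to 0.15).

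Replicates differed in a regular way for some members. MXD4 and MXD1 were higher in replicate 1 than in replicate 2 in 8 of 8 groups, with median log2 differences of 0.45 and 0.27, and TFAP4 was higher in replicate 1 in 1 of 8 groups. For MXD4 the difference ran from 0.35 to 0.86. The fit with the replicate number as a block takes up this difference, and for these genes its p values were smaller than those of the fit without it.

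The genes most alike in pattern were found by Pearson's r of log2(RPKM + 0.5) over the 16 libraries among 11512 genes with a mean of at least 1 RPKM. These values describe the libraries, which share their groups, and carry no test. For MYC they were UQCC1 (r = 0.964), an assembly factor of the respiratory chain, NAT9 (0.961) and TRIM27 (0.950). MAX was closest to TERF2IP (0.931), a telomere protein, BLCAP (0.926) and PCGF3 (0.923). MXD1 was closest to FUCA1 (0.976), a lysosomal fucosidase, CLIP2 (0.968) and REEP2 (0.967), and MXD4 to SGSH (0.984), a lysosomal sulfatase, ISYNA1 (0.983), which makes inositol phosphate, and DGAT1 (0.981), which makes triglyceride. Within the 8 p53-/- libraries, where MXD4 was low throughout, these values were 0.695, 0.801 and 0.836. MXD3 had the loosest match, with RIBC2 (0.917), HMCES (0.910) and NQO2 (0.902), and within the 8 p53-/- libraries r with RIBC2 was 0.427. MXI1 was closest to PPP1R3B (0.969), STOM (0.967) and ARMCX3 (0.966), and MNT to UBALD1 (0.972), ZNF696 (0.967) and WDR81 (0.966). MLX was closest to UBE2Q1 (0.984), PSMD7 (0.980), a proteasome subunit, and LRRC47 (0.977). TFAP4 was closest to WDR74 (0.992), a ribosome assembly factor, DNAJB12 (0.991) and LAD1 (0.990), and WDR74 had 58.0 RPKM in p53+/+ DMSO against 28.3 in Entinostat, 69.6 and 34.8 in p53-/- cells.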

How the data were processed

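RNA of HCT116 cells was sequenced in 16 libraries made with a stranded mRNA kit, per the labels' protocols, 2 in each of 8 groups, and the values analysed are RPKM per gene, which the authors computed and deposited. Bowtie2, Partek and hg19 are named in the submitters' processing notes, and the sources used here give no version, gene models or use of strand. The table lists 45902800 to 55507300 alignments per library. Of its sample columns 0 could not be matched to a label.

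RPKM was taken as log2(RPKM + 0.5), a scale that understates changes of low genes, so folds are ratios of mean RPKM. Genes with a mean of at least 0.5 RPKM were tested, 12466 of 20612 (60.5%). The 8 group means were fitted to all libraries with limma 3.58.1 (R 4.3.3) and an intensity trend, with 8 residual and 4.09 prior degrees of freedom. The 13 comparisons were adjusted by the Benjamini-Hochberg method over all genes tested. Fitted alternatives were other pseudocounts, filters and scalings, each library left out, and the replicate number as a block. Differences between replicates 1 and 2, as the labels number them, correlated across genes in all 28 pairs of groups (r 0.27 to 0.78, median 0.43), so blocked values stand beside calls of members and counts of lists that they change.

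The 9 members were fitted in all 13 comparisons, and values against DMSO that are not printed are in the plot of changes. Of each of 10 lists (MYC-activated targets, genes repressed by MYC, other network genes, SIN3 subunits, cofactors, protein turnover, MLX and MondoA targets, TFAP4-linked genes, 8q24 neighbours and regulators of MYC transcription) up to 4 called genes with the largest change are named (CLU, CNBP, TFE3, ZBTB17 and genes called with the block alone were chosen after their values were seen), and for each member the 3 genes most alike. The members and lists were chosen with earlier results of these data known. Promoters come from RefSeq (GRCh38.p14), which is not the authors' build, and were used for sequence alone.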

Additional observations from a re-analysis of the deposited data

Results flagged for a closer look

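The response of MYC to the combination differed between the genotypes by the test of the difference itself. MYC averaged 184 RPKM in p53+/+ and 71.1 RPKM in p53-/- cells with both drugs, against 156 and 119.7 RPKM in DMSO. The p53+/+ libraries lay above and the p53-/- libraries below their DMSO libraries in 2 of 2 replicates each. Of all genes, 74.8% and 67.6% likewise did not overlap in these comparisons. By limma the p53+/+ rise was not called (0.24, adjusted p = 0.21), and the p53-/- fall was (-0.76, adjusted p = 0.0035). The p53+/+ response minus the p53-/- response was 0.99 on the log2 scale (limma, adjusted p = 0.02). Leaving out any of 5 of the 8 libraries ended this call (adjusted p 0.063 to 0.091).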

How the results depend on the processing

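Of 34 calls among the 9 genes, 28 were kept under every alternative that used all libraries and 14 in every fit without 1 library. With no filter on low values the Nutlin-3A count in p53+/+ cells fell from 5 to 3, where MYC (adjusted p = 0.083), MXD1 (0.075) and MXD4 (0.054) were lost and MAX was called (0.047). MAX was also called with a mean RPKM of at least 1 (0.05 after rounding), with median of ratios scaling (0.039) and with quantile normalization (0.041). Quantile normalization gave 2 members for the difference in combination response, adding MXD4 (adjusted p = 0.047), called MNT under the combination in p53+/+ cells (-0.43, adjusted p = 0.018), and lost MXD1 under Nutlin-3A (0.081). MXD1 under the combination in p53-/- cells was lost with pseudocount 1 (0.06), no filter (0.086), median of ratios scaling (0.057) and quantile normalization (0.38), and MXD4 between the combination and Entinostat with no filter (0.063).

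With a block for the replicate number the counts were 2 for the genotypes in DMSO, 3 for the difference in Nutlin-3A response and 3 for that in combination response, against 0, 0 and 1 without it. It ended none of the calls.

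Without 1 library the counts ran from 1 to 4 for Nutlin-3A and from 1 to 3 for Entinostat in p53+/+ cells, from 2 to 4 for Entinostat and from 3 to 6 for the combination in p53-/- cells, and from 0 to 2 for the differences in Nutlin-3A and in combination response. A library left alone in its group is assumed to vary like the others.

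Values near 0 changed sign. TFAP4 departed from the sum of both responses by 0.0037 with pseudocount 1 and by -0.25 to 0.24 without 1 library. MYC under Nutlin-3A in p53-/- cells gave 0.041 with quantile normalization and -0.12 to 0.087 without 1 library. The difference in Entinostat response of TFAP4 was -0.062 and -0.18 to 0.22. The same alternatives were applied to the MYC-activated targets after the data were seen. Quantile normalization gave 4 lower under Nutlin-3A in p53+/+ cells and 9 and 13 under Entinostat and the combination in p53-/- cells. No count test was possible from RPKM.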
